A study of Mus musculus with 16 samples.

Results

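The forkhead transcription factors were followed across 5 progenitor or stem cell populations and cardiomyocytes of the mouse. Members were all genes on the arrays whose symbol begins with Fox, a class letter from a to s and a number, with the proliferation factor Foxm1 left out, and the brightest probe was taken for each gene. This gave 40 genes of the 17710 named genes measured. All cells came from C57BL/6 mice of a genotype labelled normal. The heart gave 3 populations. Heart c-kit cells were sorted by flow cytometry for c-kit, a receptor tyrosine kinase (3 arrays), and heart Sca1 cells for Sca1 in the absence of CD45, found on leukocytes, and CD31, found on endothelium (3 arrays). Side population cells were chosen by their efflux of a Hoechst dye (2 arrays). Cardiomyocytes pelleted by slow centrifugation served as the control (2 arrays). Bone marrow gave c-kit sorted cells (called marrow c-kit cells, 3 arrays) and mesenchymal stem cells harvested after 5 passages in culture (MSC, 3 arrays). The labels give Matrigel-coated dishes and mTeSR medium as the growth condition of every sample and do not say if the sorted cells were cultured before RNA was taken. They give no age, sort purity or number of animals and leave unsaid if replicates were separate animals. A p-value here therefore measures the scatter of these arrays, some of which may be technical. The title of the series sets cardiac against marrow progenitors, and its design text names progenitors against cardiomyocytes.

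Forkhead proteins bind DNA through a winged helix domain, and many of them recognise a core such as GTAAACA. FoxC, FoxF and FoxS factors are known from mesoderm, vessel wall and stroma. FoxO factors switch on genes of cell cycle arrest, stress resistance and fasting metabolism, and insulin and growth factor signals drive them out of the nucleus through the kinase Akt. FoxP factors are repressors that act as dimers, and FoxA factors open chromatin in endodermal organs such as liver and lung.

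Of the 40 members, 27 had a promoter in the RefSeq table of the mouse assembly GRCm38.p6, which gives 250 bases before to 50 bases after a gene's start. The promoters of Foxc1, Foxo1 and Foxd1 are shown because these genes differed between cell groups and have an entry, which Foxp2, Foxs1, Foxc2 and Foxq1 have not. Each reads 5′ to 3′ on the gene's own strand, the plus strand for all of them, and lies at chr13:31806396-31806695, chr3:52268087-52268386 and chr13:98353995-98354294. Capitals mark GC boxes, the letters GGGCGG or their reverse complement CCGCCC.
Foxc1: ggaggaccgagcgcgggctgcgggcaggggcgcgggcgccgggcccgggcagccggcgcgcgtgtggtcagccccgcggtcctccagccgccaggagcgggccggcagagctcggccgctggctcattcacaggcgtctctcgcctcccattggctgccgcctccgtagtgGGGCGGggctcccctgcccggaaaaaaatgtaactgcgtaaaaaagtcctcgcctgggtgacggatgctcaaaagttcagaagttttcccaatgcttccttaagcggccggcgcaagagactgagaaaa
Foxo1: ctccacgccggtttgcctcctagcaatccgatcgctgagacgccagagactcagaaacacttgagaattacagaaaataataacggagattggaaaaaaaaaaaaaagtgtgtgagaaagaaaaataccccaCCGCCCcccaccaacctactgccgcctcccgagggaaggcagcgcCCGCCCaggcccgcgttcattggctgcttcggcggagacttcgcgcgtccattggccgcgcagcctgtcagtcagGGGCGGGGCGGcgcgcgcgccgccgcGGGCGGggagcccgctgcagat
Foxd1: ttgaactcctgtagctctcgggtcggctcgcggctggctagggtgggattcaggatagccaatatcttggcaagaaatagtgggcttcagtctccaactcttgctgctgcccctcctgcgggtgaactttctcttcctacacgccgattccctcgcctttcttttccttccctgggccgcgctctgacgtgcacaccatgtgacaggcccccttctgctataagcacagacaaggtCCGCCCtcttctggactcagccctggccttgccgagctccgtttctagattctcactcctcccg
The window holds 1 GC box in Foxc1, 5 in Foxo1 and 1 in Foxd1. Over all 32 forkhead promoters of the table, 75% held a GC box on either strand, against 35.7% of all 32851 promoters. Median GC content was 62.5% in forkhead promoters and 52.7% in all promoters. The forkhead core GTAAACA, searched on both strands, was in 3.12% of forkhead promoters and 3.65% of all promoters, and in none of the windows shown. The TATA letters TATAAA were in 9.38% of forkhead promoters and 13.6% of all promoters. These matches describe the sequence and were not read as binding sites.

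Levels are given as quantile-normalised log2 intensities, where 0 lies near the mean of an array over all probes. The level of a gene is compared between arrays and not with that of another named gene, because probes differ in brightness. The exception is its place above or below the array median, which depends on the brightness of its probe too. The median spot intensity of an array ran from 15 to 200. A repeated fill value stood for 3.38% to 13.8% of the probes of an array, and differences against cells at that value are uncertain in size. Pearson correlations between replicate arrays, across genes, were lowest for the side population pair (0.748) and for heart c-kit cells (0.791 to 0.805), and 0.893 to 0.942 in the other groups. Markers of the labelled cell types were read with them. The mean level of 7 cardiomyocyte markers was 6.89 on both cardiomyocyte arrays and between 0.42 and 3.75 on all other arrays. The cardiomyocyte arrays also carried 10 endothelial markers at 6.25 and 6.68, the highest of any group, while heart c-kit arrays had them at 4.75 to 5.64. Heart Sca1 cells had 9 fibroblast markers at 6.12 to 6.42, but their replicate 3 had endothelial markers at 5.19 where the other replicates had 0.15 and 1.94. MSC had 8 macrophage and leukocyte markers at 5.92 to 6.31, above the 3.87 to 4.73 of marrow c-kit cells, with fibroblast markers at 2.11 to 2.90. In these bulk samples, fewer cells of a type and less RNA per cell cannot be told apart.

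As a family the forkhead genes varied about as much as other genes. The range of the 6 group means had a median of 2.66 log2 units over the 40 members and 2.76 over all genes, and ran from 1.33 for Foxa3 to 9.27 for Foxp2. On all 16 arrays, 12 members (30%) lay above the array median, against 22.3% of all genes, and 9 members (22.5%) lay below it on all 16, against 23.8%. At least 1 array had the fill value for 13 members (32.5%), against 33.2% of all genes. In limma's moderated F-test over the 6 groups, 10 of 40 members passed at an adjusted p under 0.05, which is 25%, while 31.9% of all genes did. In order of adjusted p these were Foxp2 (1.41e-06), Foxs1 (6.90e-06), Foxc1 (0.000387), Foxo1 (0.00125), Foxd1 (0.00787), Foxc2 (0.0154), Foxj2 (0.0270), Foxp1 (0.0300), Foxo3 (0.0401) and Foxd4 (0.0457). The first 5 passed without any single array, while Foxc2 was lost without marrow c-kit replicate 2 or 3, Foxj2 without each of the 6 marrow arrays, and Foxp1, Foxo3 and Foxd4 without 7, 11 and 14 of the 16 arrays in turn. Foxq1 passed in single contrasts only, so 11 members passed in some test and 29 in none of the 11 tests run.

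**Figure D1:**
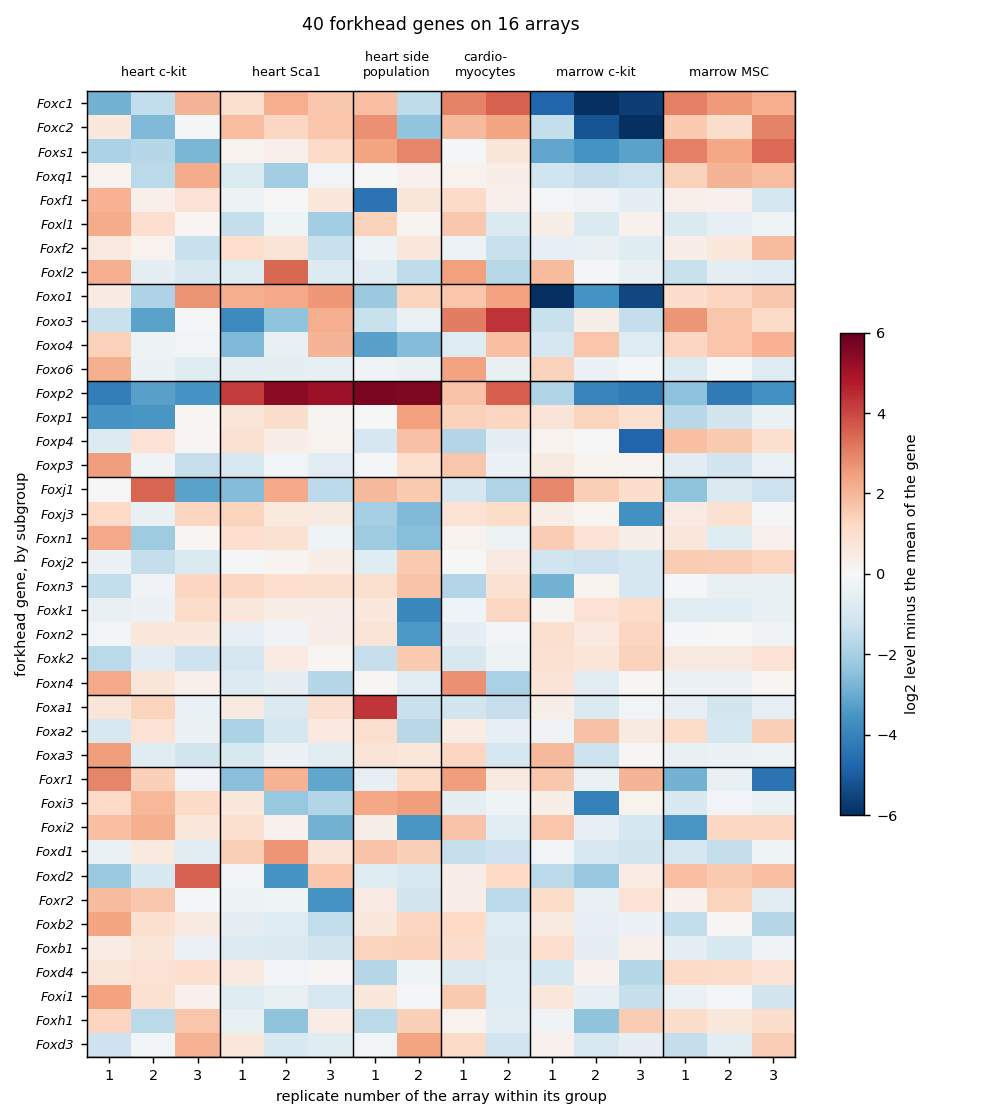
Log2 level of each of 40 forkhead genes (rows, by subgroup) on each of 16 arrays (columns, by cell group and replicate number), minus the mean of that gene over all arrays; red is above and blue below that mean. Foxp2 stands out with both side population arrays and all 3 heart Sca1 arrays high, and Foxc1, Foxc2 and Foxo1 with all 3 marrow c-kit arrays low.

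Of the contrasts, marrow c-kit cells against MSC had the most members passing, 6 of 40 (15%), not far from the 11% of all genes. All 6 were lower in marrow c-kit cells, where 7.37% of all genes were lower. They were Foxs1, Foxc1, Foxo1, Foxc2, Foxj2 and Foxq1. The median log2 difference over the 40 members was 0.14 and over all genes also 0.14, and the other 34 members did not pass. Between heart and marrow c-kit cells 3 members passed (10.8% of all genes), and between heart Sca1 cells and MSC 4 (10.3%). In heart c-kit cells against heart Sca1 cells 3 members passed (11.2% of all genes), all lower in c-kit cells, where 7.87% of all genes were lower. For the mean of the 3 cardiac progenitor groups against the 2 marrow groups 3 members passed (20.5%), all higher, where 9.12% of all genes were higher.

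Foxc1 and Foxc2 encode closely related factors that shape arteries, lymphatics and the outflow tract of the heart, and Foxc1 also marks the stroma of the marrow niche. Foxc1 stood at -4.02, -5.89 and -4.88 on the marrow c-kit arrays, with spot intensities of 5, the fill value and 3. In MSC it stood at 3.79, 3.30 and 2.94. The other arrays read 1.73, 2.93 and 2.39 in heart Sca1 cells, 3.71 and 4.28 in cardiomyocytes, 2.57 and -0.75 in side population cells and -2.10, -0.71 and 2.81 in heart c-kit cells. Marrow c-kit cells were thus the lowest on every array, and the heart c-kit and side population arrays were spread over several log2 units. The log2 difference of marrow c-kit cells from MSC was -8.27 ± 1.09 (SE; limma adjusted p = 0.000171), or -5.62 when low values were raised to the 30th percentile. In Foxc1 heart c-kit cells exceeded marrow c-kit cells by 4.93 ± 1.09 (adjusted p = 0.00896), which became 2.27 (adjusted p = 0.211) with low values raised and missed the threshold when only these groups were fitted (adjusted p = 0.0637). In the order of Foxc1 means, cardiomyocytes (4.0) were followed by MSC (3.34), heart Sca1 cells (2.35), side population cells (0.91) and heart c-kit cells (near 0). The arrays of neighbours in that order overlapped, except for MSC and heart Sca1 cells, and none of the contrasts run between these groups passed. The cardiomyocyte arrays also had the highest endothelial markers (6.25 and 6.68) and the highest pericyte and smooth muscle markers (4.19 and 4.20) of any group. The part of those markers in the Foxc1 level was not tested.

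Foxc2 showed the same low group with more spread. It stood at -1.11, -4.88 and -6.08 on the marrow c-kit arrays and at 1.90, 1.39 and 3.31 in MSC. Heart Sca1 cells gave 2.19, 1.58 and 1.98, cardiomyocytes 2.29 and 2.68, heart c-kit cells 0.94, -2.35 and 0.25, and side population cells 3.05 and -2.03. The marrow c-kit arrays did not overlap those of MSC, heart Sca1 cells or cardiomyocytes, but they did overlap those of heart c-kit and side population cells. The log2 difference from MSC was -6.22 ± 1.36 (SE; limma adjusted p = 0.00800), and that between heart and marrow c-kit cells, 3.63 ± 1.36, did not pass (adjusted p = 0.114).

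Foxs1, a factor of pericytes and sensory ganglia, was highest in MSC (6.30, 5.58 and 6.68) and side population cells (5.67 and 6.20). It was next in heart Sca1 cells (3.49, 3.56 and 4.42) and cardiomyocytes (3.16 and 4.0). Heart c-kit cells had 1.36, 1.59 and 0.55, and marrow c-kit cells 0.17, -0.31 and 0.05. No group except the pairs of MSC with side population cells and of heart Sca1 cells with cardiomyocytes overlapped another. Marrow c-kit cells were below MSC by -6.21 ± 0.53 (SE; limma adjusted p = 3.84e-06), with intensities of 73 to 81 against 7979 to 10336. Heart c-kit cells were below heart Sca1 cells (-2.66 ± 0.53, adjusted p = 0.00559), which in turn were below MSC (-2.36 ± 0.53, adjusted p = 0.0104). The former missed the threshold when only these groups were fitted (adjusted p = 0.0646), and the latter without MSC replicate 3 (0.0572) or heart Sca1 replicate 1 (0.0502). The difference between the c-kit cells of both organs, 1.19 ± 0.53, did not pass (adjusted p = 0.195), although their arrays did not overlap.

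Foxq1, a repressor linked to epithelial cells and hair, was high in MSC (1.65, 2.28 and 2.09) and low in marrow c-kit cells (-0.95, -1.16 and -1.03) and heart Sca1 cells (-0.57, -1.84 and 0.10). Cardiomyocytes (0.46 and 0.63) and side population cells (0.23 and 0.52) lay between. Heart c-kit cells ran from -1.36 to 2.48 and overlapped every other group. The differences of marrow c-kit cells from MSC (-3.05 ± 0.79, SE; limma adjusted p = 0.0230) and of heart Sca1 cells from MSC (-2.78 ± 0.79, adjusted p = 0.0392) passed. The first missed the threshold without any 1 of the 6 arrays compared (adjusted p from 0.0548 to 0.0782), and the second without 5 of its 6 arrays (highest 0.168, without heart Sca1 replicate 2) and with medians aligned only (0.0714).

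Of the other members of these classes, Foxf1, Foxf2, Foxl1 and Foxl2 passed no test. Foxf1 and Foxf2 are targets of hedgehog signals in gut and lung mesenchyme, and their group means ranged over 2.93 and 1.79 log2 units. Of 11 measured hedgehog pathway genes, none passed between heart and marrow c-kit cells, where 10.8% of all genes did, and 1 was lower in marrow c-kit cells than in MSC (7.37% of all genes), the effector Gli3 (-5.64 ± 1.25, SE; limma adjusted p = 0.00868). Gli3 was lower in heart c-kit than heart Sca1 cells too (-5.15 ± 1.25, adjusted p = 0.0167), as was the ligand gene Dhh (-3.78 ± 1.10, adjusted p = 0.0412), which makes 2 of the 11 against 7.87% of all genes.

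The list of targets and partners of FoxC factors in vessels had 14 measured genes. Of these, 1 was lower in marrow c-kit cells than in MSC, the Notch target Hes1 (-4.99 ± 0.73, SE; limma adjusted p = 0.000430), and the median difference was 0.18 against 0.14 over all genes. Between heart and marrow c-kit cells 7 of the 14 passed, all higher in heart cells, where 4.89% of all genes were higher. Among them Cdh5, the cadherin of endothelial junctions, differed by 9.39 ± 1.40, the receptor genes Tek by 6.31 ± 0.68 and Flt4 by 6.36 ± 1.04, and Hes1 by 6.78 ± 0.73 (adjusted p = 0.000460, 2.97e-05, 0.000956 and 3.01e-05). Cdh5, Tek and Kdr are also among the 10 endothelial markers, of which 7 were higher in heart c-kit cells. Endothelial markers were at 4.75 to 5.64 on the heart c-kit arrays against -0.38 to 0.12 on the marrow c-kit arrays, and fibroblast markers at 1.20 to 3.12 against -2.00 to -1.66. Between marrow c-kit cells and MSC, the mean of the fibroblast markers moved with the FoxC and FoxS genes (5 of 9 lower in c-kit cells and 0 higher, at -2.00 to -1.66 against 2.11 to 2.90). Col1a1 of that list went the other way without a call (4.97, 4.66 and 4.13 against 3.82, 2.95 and 2.95). The mean of the pericyte and smooth muscle markers also moved (4 of 9 lower and 0 higher, at -0.41 to 0.26 against 2.05 to 2.22). Not all of them were lower. Abcc9 (2.09, 1.05 and 1.75 against 1.09, 0.52 and 1.07) and Kcnj8 (2.10, 0.61 and 1.29 against -0.21, 0.96 and -0.89) leaned higher in marrow c-kit cells, with overlapping arrays. Macrophage and leukocyte markers were lower as well, at 3.87 to 4.73 against 5.92 to 6.31, with 1 of 8 called lower and 0 higher. Mast cell markers moved the other way (5 of 7 higher, at 1.60 to 2.21 against -2.96 to -2.72). The part of these markers in the forkhead differences was not tested. Within heart c-kit cells, replicate 3 had the highest fibroblast level (3.12 against 1.20 and 1.50) and also the highest Foxc1, Foxq1 and Foxo1, but the lowest Foxs1 (0.55 against 1.36 and 1.59) and Foxd1 (0.66 against 0.92 and 1.89), while Foxc2 was highest on replicate 1.

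**Figure D2:**
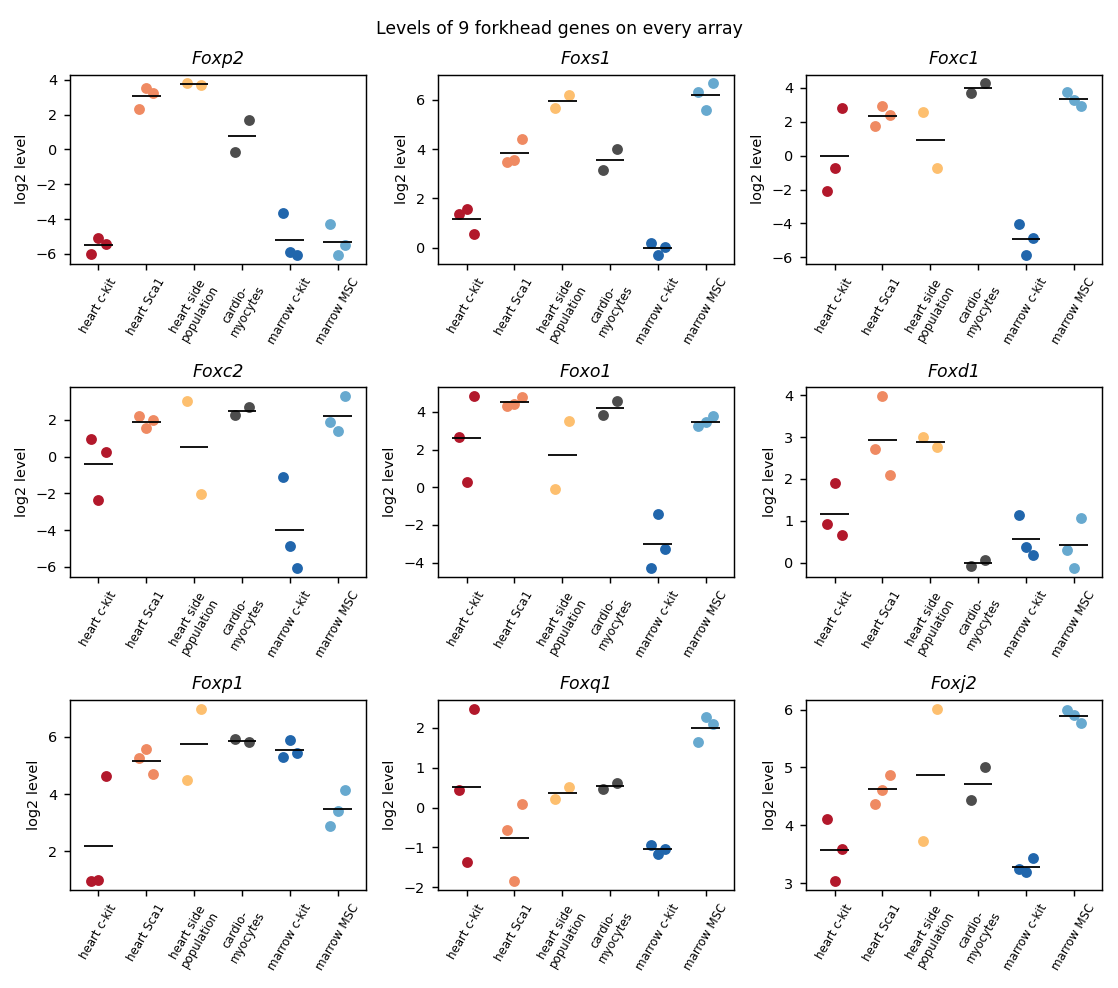
Log2 level of 9 forkhead genes on every array, with 1 panel per gene, 1 column of points per cell group and a line at the group mean; each panel has its own vertical axis. Points of Foxp2 near -5 and -6 and the marrow c-kit points of Foxc1 sit at or near the fill value, and heart c-kit points are widely spread for Foxc1, Foxo1, Foxp1 and Foxq1.

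Among the 4 FoxO genes, Foxo1 passed in contrasts and Foxo3 in the F-test alone. Foxo1, the main insulin-regulated member in vessels and liver, stood at -4.29, -1.42 and -3.29 in marrow c-kit cells, with intensities of 4, 27 and 8. It stood at 3.24, 3.46 and 3.76 in MSC, 4.33, 4.42 and 4.76 in heart Sca1 cells and 3.82 and 4.60 in cardiomyocytes. Heart c-kit cells gave 2.68, 0.29 and 4.84 and side population cells -0.07 and 3.49, so that the marrow c-kit arrays lay below every other array. Their log2 difference from MSC was -6.48 ± 1.10 (SE; limma adjusted p = 0.00132). Heart c-kit cells exceeded marrow c-kit cells by 5.60 ± 1.10 (adjusted p = 0.00389), and the 3 cardiac progenitor groups together exceeded the marrow groups by 2.70 ± 0.73 (adjusted p = 0.0176). In the last of these the arrays of both sides overlapped, and the call was lost without marrow c-kit replicate 1 (adjusted p = 0.0522) and with the deposited values (0.0978). The heart to marrow difference of c-kit cells missed the threshold without the 3 arrays of narrow spread, 1 each from heart c-kit cells, cardiomyocytes and marrow c-kit cells (4.92, adjusted p = 0.0671).

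Foxo3, the member tied to stem cell quiescence, was called by the F-test and by no contrast. It was highest in cardiomyocytes (1.19 and 2.46) and MSC (0.79, -0.21 and -0.70). The heart c-kit arrays gave -3.18, -5.10 and -1.97, the side population arrays -3.18 and -2.27, and the marrow c-kit arrays -3.18, -1.53 and -3.29, with intensities of 25 or less and 1 array at the fill value. Heart Sca1 cells were split, at -5.69, -4.29 and 0.32, the last being replicate 3 with the high endothelial markers. Both cardiomyocyte arrays lay above all 8 cardiac progenitor arrays, with a log2 difference of -4.94 ± 1.22 for progenitors minus cardiomyocytes (SE; limma adjusted p = 0.0834). Foxo4 ranged from -4.72 in side population cells to -0.10 in MSC by group mean and passed no test, and Foxo6, a FoxO factor of the brain, had group means within 1.52 log2 units.

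The 24 listed FoxO target genes were all measured. In marrow c-kit cells against MSC, the comparison in which Foxo1 was lower, 7 of 24 targets were lower and 1 was higher (all genes: 7.37% lower and 3.66% higher), with a median of -1.71 against 0.14 over all genes. Pdk4, the kinase that spares glucose on fasting, stood at -3.18, -3.89 and -3.08 on marrow c-kit arrays and at 5.57, 5.11 and 5.80 in MSC. Its difference was -8.88 ± 0.76 (SE; limma adjusted p = 3.95e-06). The transcriptional repressor gene Bcl6 (-5.61 ± 0.66), the transcription factor gene Klf4 (-4.27 ± 0.70) and Cdkn1a, the cell cycle inhibitor p21 (-2.25 ± 0.49), were lower as well, with adjusted p of 7.21e-05, 0.000990 and 0.00787. The death ligand gene Tnfsf10 was higher (2.34 ± 0.70, adjusted p = 0.0462).

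Between heart and marrow c-kit cells 6 of the 24 targets were higher in heart cells and 0 lower (all genes: 4.89% higher and 5.93% lower), with a median of 0.93 against 0.11 over all genes. Pdk4 differed by 6.38 ± 0.76, Klf4 by 4.98 ± 0.70, Cdkn1a by 3.61 ± 0.49 and Bcl6 by 3.34 ± 0.66 (SE; limma adjusted p = 7.03e-05, 0.000281, 0.000217 and 0.00428). Both contrasts use the same marrow c-kit arrays, so they are not independent. Those arrays had the 4 cycling markers at 4.23 to 4.85, against 2.66 to 3.57 in MSC and -1.59 to 0.01 in heart c-kit cells. Their part in the target differences was not tested. Foxo1 was lower in heart c-kit than heart Sca1 cells without passing (-1.90 ± 1.10, limma adjusted p = 0.276). In the same comparison 4 targets were lower in heart c-kit cells and 0 higher (all genes: 7.87% lower and 3.31% higher), namely Klf4, Cdkn1b, Pdk4 and Bcl6. The part of Foxo1 in these differences was not tested. Of 15 measured upstream genes of the insulin, PI3K and Akt route, 1 was lower in marrow c-kit cells than in MSC (7.37% of all genes). It was Sgk1, a kinase that phosphorylates FoxO proteins (-3.37 ± 0.50, adjusted p = 0.000462). Between heart and marrow c-kit cells 1 was higher and 1 lower (all genes: 4.89% and 5.93%). These were Sgk1 (4.95 ± 0.50, adjusted p = 1.66e-05) and the leukocyte PI3K subunit gene Pik3cd (-5.23 ± 0.99, adjusted p = 0.00313). In cardiac against marrow groups, where Foxo1 passed too, 6 of the 15 passed, 2 higher and 4 lower (20.5% of all genes). Between heart Sca1 cells and MSC 3 passed, 1 higher and 2 lower (10.3% of all genes).

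**Figure D3:**
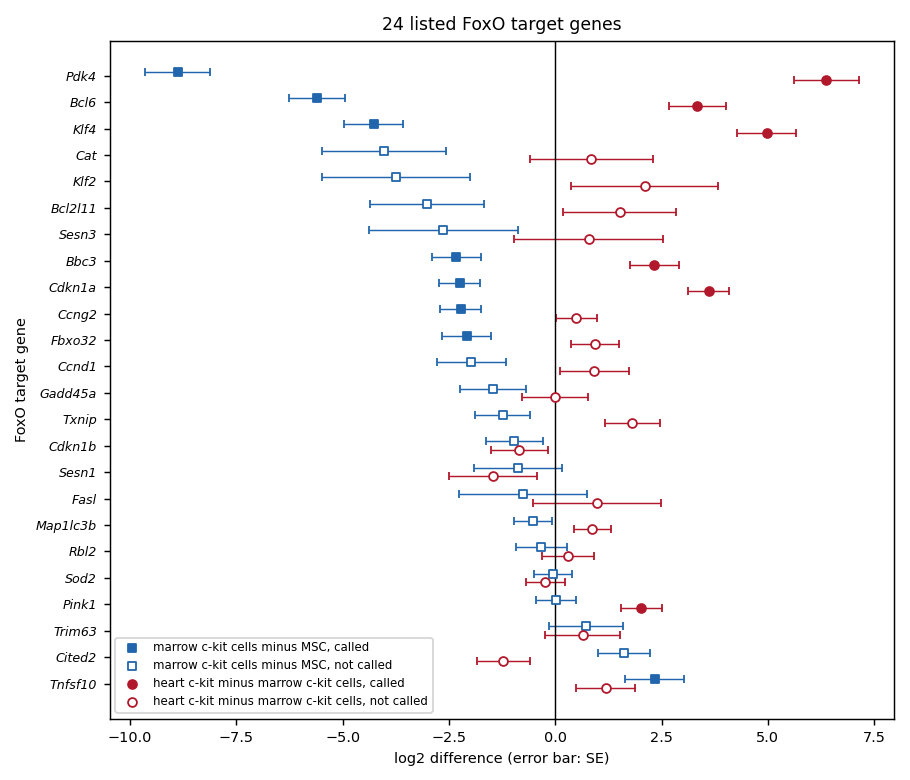
Log2 difference with its SE for 24 listed FoxO target genes in marrow c-kit cells minus MSC (squares) and heart c-kit minus marrow c-kit cells (circles), filled where the limma adjusted p was under 0.05. In marrow c-kit cells minus MSC 7 genes are filled to the left of 0 and 1 to the right, and in heart minus marrow c-kit cells all 6 filled genes lie to the right.

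Foxp2 gave the largest differences of any member. The gene encodes a repressor best known from speech and motor circuits, which is also made in lung and in some mesenchyme. It stood at 2.33, 3.55 and 3.27 in heart Sca1 cells, with intensities of 632, 1441 and 1057, and at 3.81 and 3.73 in side population cells (560 and 691). Cardiomyocytes gave -0.13 and 1.72 (97 and 543). All 9 arrays of heart c-kit cells, marrow c-kit cells and MSC lay between -6.08 and -3.65, with 6 of them at the fill value and the others at intensities of 1, 6 and 2. The groups with and without signal did not overlap. Heart c-kit cells were below heart Sca1 cells by -8.55 ± 0.75 (SE; limma adjusted p = 1.29e-05), and heart Sca1 cells exceeded MSC by 8.34 ± 0.75 (adjusted p = 1.55e-05). With all low values lifted to the 30th percentile (-2.27) the first difference was -5.32 and the second 5.32, and both passed. All 9 low arrays then share 1 value and have no spread. The 2 results are therefore the same number and not separate checks. The 3 cardiac progenitor groups together exceeded the marrow groups by 5.69 ± 0.50 (adjusted p = 3.25e-06), although the heart c-kit arrays lay among the marrow arrays. The low groups were heart c-kit cells (mean -5.50), MSC (-5.29) and marrow c-kit cells (-5.21). The contrasts among them did not pass (limma adjusted p = 0.876 for heart against marrow c-kit cells and 0.966 for marrow c-kit cells against MSC). As these arrays lay at or near the fill value, these tests cannot tell if the low groups differ in Foxp2. Of the high groups, both side population arrays lay above all heart Sca1 arrays, a difference that was not tested.

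By the mean of their list, fibroblast markers stood high on the same arrays as Foxp2, at 6.12 to 6.42 for heart Sca1 cells, 5.25 to 5.45 for side population cells and 4.15 to 5.07 in cardiomyocytes. They were at 1.20 to 3.12 in heart c-kit cells, 2.11 to 2.90 in MSC and -2.00 to -1.66 in marrow c-kit cells. Single markers did not all follow the mean. Col1a1 in heart c-kit cells (5.97, 5.08 and 5.90) and Fn1 in MSC (7.76, 7.64 and 7.72) lay above every heart Sca1 and side population array. Pdgfra was at 0.42 on side population replicate 2. Endothelial markers were high on both cardiomyocyte arrays (6.25 and 6.68) and on heart Sca1 replicate 3 (5.19), which had Foxp2 signal. They were also high on the heart c-kit arrays (4.75 to 5.64), where Foxp2 lay near the fill value. The remaining heart Sca1 replicates, with Foxp2 signal, had them at 0.15 and 1.94, and the side population arrays at 0.37 and 0.72. Marrow c-kit arrays, low in Foxp2, had them at -0.38 to 0.12, and MSC arrays, also low, at -1.71 to -0.77. The part of the fibroblast and endothelial markers in the Foxp2 differences was not tested.

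Foxp1, a broadly made FoxP member that is needed in the myocardium and in lymphocytes, was low on 2 arrays. It stood at 0.96, 1.01 and 4.62 in heart c-kit cells, those of replicates 1 and 2 being the lowest of all arrays. Heart Sca1 cells gave 5.24, 5.56 and 4.68, side population cells 4.50 and 6.97, and cardiomyocytes 5.92 and 5.81. Marrow c-kit cells gave 5.29, 5.88 and 5.43, and MSC 2.87, 3.41 and 4.13. Heart c-kit cells were below marrow c-kit cells (-3.33 ± 0.90, SE; limma adjusted p = 0.0274) and heart Sca1 cells (-2.97 ± 0.90, adjusted p = 0.0485) without overlap, but replicate 3, at 4.62, lay just below the lowest heart Sca1 array, at 4.68. Neither call held with medians aligned only (-2.12, adjusted p = 0.302, and -2.56, adjusted p = 0.164), and without heart c-kit replicate 1 the differences were -2.71 and -2.35 (adjusted p = 0.0925 and 0.149). Leaving out 1 array at a time ended the first call in 5 of 16 cases, each an array of the groups compared, and the second in 13 of 16. Foxp4 and Foxp3 passed no test. Foxp3, the factor of regulatory T cells, had group means within 1.39 log2 units, and the 5 T cell markers lay between -1.86 and 0.34 on all arrays. Of 11 measured FoxP partners and regulatory T cell genes, 2 were lower in heart than marrow c-kit cells, Runx1 (-2.95 ± 0.81) and Ikzf2 (-5.20 ± 1.22), and 1 was higher, Tnfrsf18 (2.13 ± 0.65), with adjusted p of 0.0306, 0.0127 and 0.0491. Over all genes 5.93% were lower and 4.89% higher in this comparison.

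Of the 9 FoxJ, FoxK and FoxN genes, Foxj2 passed. Foxj2, a widely made activator, stood at 3.25, 3.19 and 3.43 on marrow c-kit arrays and at 5.98, 5.91 and 5.77 in MSC. The difference was -2.60 ± 0.58 (SE; limma adjusted p = 0.00927). Heart Sca1 cells (4.38, 4.62 and 4.88) and cardiomyocytes (4.44 and 5.00) lay between, heart c-kit cells gave 4.11, 3.04 and 3.59, and side population cells 3.74 and 6.01. Foxj1, the master factor of motile cilia, had the largest range of group means in its class, 3.33, from marrow c-kit cells (3.04, 1.58 and 1.23) down to MSC (-2.28, -0.72 and -1.13). Those arrays did not overlap, but the difference of 3.33 ± 1.44 did not pass (adjusted p = 0.177). Replicates lay far apart in heart c-kit cells (0.19, 3.66 and -3.05) and heart Sca1 cells (-2.46, 2.45 and -1.42). Foxj3, a factor of muscle and testis, was low on both side population arrays (2.75 and 2.10) and on marrow c-kit replicate 3 (1.13), and between 4.30 and 6.07 on the other 13 arrays. Foxk1 and Foxk2, which restrain autophagy genes, and Foxn3, a checkpoint repressor, lay above the array median on all 16 arrays and passed no test, while Foxn1, the factor of thymic epithelium, lay below it on all 16.

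Of the 12 remaining developmental and germ cell factors, Foxd1 and Foxd4 passed. Foxd1, a marker of renal and lung stroma, stood at 2.73, 3.98 and 2.09 on the heart Sca1 arrays and 3.00 and 2.76 on the side population arrays. It stood at 0.92, 1.89 and 0.66 in heart c-kit cells, 1.13, 0.37 and 0.19 on the marrow c-kit arrays, 0.31, -0.13 and 1.06 on those of MSC and -0.08 and 0.06 in cardiomyocytes. Every heart Sca1 and side population array lay above every array of the other groups. Heart Sca1 cells exceeded MSC by 2.52 ± 0.60 (SE; limma adjusted p = 0.0146), and the 3 cardiac progenitor groups exceeded the marrow groups by 1.83 ± 0.40 (adjusted p = 0.00456). In the latter the heart c-kit arrays overlapped the marrow arrays. The former missed the threshold without heart Sca1 replicate 2 (1.99, adjusted p = 0.0815) or MSC replicate 1 or 2 (adjusted p = 0.0581 and 0.0747). Foxd1 and Foxp2 were highest in the same groups, heart Sca1 and side population cells. The mean of the fibroblast markers was highest there too, though not every single marker, and the part of those markers was not tested.

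Foxd4 was at 4.35, 4.28 and 3.98 in MSC and at 3.88, 4.03 and 4.17 in heart c-kit cells. Marrow c-kit cells gave 2.11, 3.42 and 1.45, heart Sca1 cells 3.77, 3.01 and 3.23, side population cells 1.48 and 2.90, and cardiomyocytes 2.32 and 2.41. It passed the F-test and no contrast, and with the mean over its probes the F-test no longer passed (adjusted p = 0.327). Its other probe lay between -6.11 and -3.13 on all arrays. Foxl2, the ovary factor, is the only other member with several probes, and they disagree as well: the brighter one had group means of 4.20 to 5.90 and the other -3.82 to -1.07. Foxr1 and Foxi3, the latter a factor of the ear and teeth, had the largest ranges of group means in this class (4.08 and 3.60) and passed no test.

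The 3 FoxA genes passed no test. Foxa1 and Foxa2 reached intensities of at most 13 and 17 on any array and lay below the array median on all 16, with Foxa1 at the fill value on 7 arrays. Foxa3 lay above the array median on all 16, with group means within 1.33 log2 units.

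Against cardiomyocytes few members passed. For the mean of the 3 cardiac progenitor groups 0 of 40 did, against 0.678% of all genes, with 3 members and 2100 of all genes at an unadjusted p under 0.05. For heart Sca1 cells limma called 0 of 40 and 0% of all genes, with 3 members and 2068 of all genes at an unadjusted p under 0.05. The 7 cardiomyocyte markers had 0 calls there too, at a median log2 difference of -3.08, so a missing call cannot show equal levels. For heart c-kit cells 2 members passed, both lower (all genes: 3.6% called, 2.6% lower). These were Foxp2 (-6.30 ± 0.84, SE; limma adjusted p = 0.00113) and Foxs1 (-2.41 ± 0.59, adjusted p = 0.0390), and neither passed when only these groups were fitted (adjusted p = 0.0974 and 0.433). The Foxs1 call was lost without 11 of the 16 arrays in turn, with a highest adjusted p of 0.282. For side population cells 1 member passed (5.2% of all genes), Foxd1, with 2.89 ± 0.73 (adjusted p = 0.0378). The Foxd1 call was lost without cardiomyocyte replicate 1 or 2 (adjusted p = 0.134 and 0.122) and without 8 of the 16 arrays in all.

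The c-kit sorted cells of each organ were then set against other cells of that organ, heart Sca1 cells or MSC, here called stromal cells. For MSC this is a name only, as their macrophage and leukocyte markers, at 5.92 to 6.31, were the highest of any group. The c-kit minus stromal difference was taken in each organ, and the heart value minus the marrow value was tested. It passed for 5 of 40 members, against 7.46% of all genes. Foxp2 was lower in c-kit cells in the heart only, where MSC and marrow c-kit cells both lay near the fill value (heart -8.55, marrow 0.09; difference -8.64 ± 1.06, SE; limma adjusted p = 0.000257). Foxs1 was lower in c-kit cells in both organs and more so in the marrow (heart -2.66, marrow -6.21; difference 3.55 ± 0.75, adjusted p = 0.0103). Foxc1 was -2.35 in the heart and -8.27 in the marrow (difference 5.92 ± 1.55, adjusted p = 0.0318). Foxp1 was -2.97 in the heart and 2.06 in the marrow (difference -5.03 ± 1.27, adjusted p = 0.0274), and Foxq1 1.29 and -3.05 (difference 4.35 ± 1.12, adjusted p = 0.0303). For Foxo1 the differences of -1.90 and -6.48 were not shown to be unequal (4.58 ± 1.55, adjusted p = 0.0970). With the deposited values Foxp2 was the only one of these 5 that still passed, and leaving out 1 array at a time ended the call of Foxc1 in 8, of Foxp1 in 9 and of Foxq1 in 8 of 16 cases (highest adjusted p = 0.0860, 0.0721 and 0.0818). When low values were raised to the 30th percentile, the Foxc1 difference was 3.27 and no longer passed (adjusted p = 0.217), and that of Foxp2 was -5.32 and still passed (adjusted p = 0.000111). For Foxp2 this repeats the heart difference, because both marrow groups then hold 1 shared value.

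**Figure D4:**
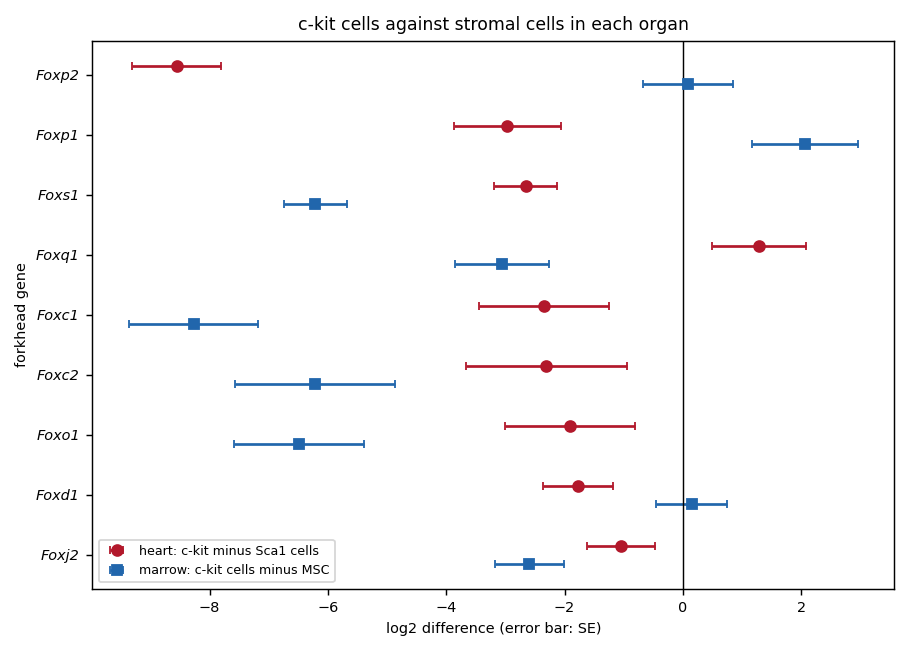
Log2 difference with its SE of c-kit cells minus stromal cells for 9 forkhead genes, in the heart (heart c-kit minus heart Sca1 cells, circles) and in the marrow (marrow c-kit cells minus MSC, squares). Foxp2 is far below 0 in the heart only, Foxs1, Foxc1, Foxc2, Foxo1 and Foxj2 have the lower point in the marrow, and Foxp1 and Foxq1 lie on opposite sides of 0 in the heart and the marrow.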

How the data were processed

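Expression was read on 16 arrays of 26423 probes, after amplification of RNA with the WT-Ovation Pico kit and coupling to a Cy5 ester, per the labels' protocols. The authors deposited log2 Cy5 values, the only channel used, centred on the array mean (read from the values), except MSC replicate 3 with a mean of 0.30. The fill value is read from the values too, while scanner settings and background correction are not given. Array medians spread over 1.45 log2 units, so the values were quantile normalised in limma 3.58.1 (R 4.3.3). The probe table gave 20377 probes a symbol, updated through RefSeq names of GRCm38.p6 to 17710 genes, with the probe of highest mean used for each. A 6-group model was fitted to all 16 arrays with empirical Bayes moderation (residual degrees of freedom 10, prior 3.81), with 9 contrasts, an interaction and an F-test. Values are log2 differences with their SE, and the Benjamini-Hochberg adjustment ran over all 17710 genes, with a threshold of 0.05. The procedure was tested on simulated data.

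Members and gene lists were chosen with earlier results of these data known. Members were named with values if called in a test, if among the 2 of their subgroup with the largest range of group means, or if their probes disagreed, and up to 4 called genes were named from a related list and contrast. Alternatives were other scalings, a filter on low values, low values raised, the mean over probes, other moderation, a replicate block, array weights, fits of fewer groups and leaving out each array. Leaving out the 3 arrays of narrowest spread was added after seeing the data.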

Additional observations from a re-analysis of the deposited data

Results flagged for a closer look

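The difference between c-kit cells and stromal cells of an organ was unequal in heart and marrow for 5 forkhead genes by the limma interaction test (adjusted p under 0.05). The heart minus marrow values were -8.64 for Foxp2, 5.92 for Foxc1, -5.03 for Foxp1, 4.35 for Foxq1 and 3.55 for Foxs1, of 1322 such genes in all. When low values were raised to the 30th percentile, Foxc1 moved to 3.27 and did not pass (adjusted p = 0.217), and Foxp2 moved to -5.32 (adjusted p = 0.000111). Foxd4 was higher on every c-kit array than on every stromal array in the heart and lower on every c-kit array in the marrow, with an interaction of 2.56 that did not pass (adjusted p = 0.0769).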

How the results depend on the processing

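Of 948 recomputed values of called members, F-test values included, 771 kept their call and 177 lost it. No call in a contrast reversed its direction, and F-test values have no direction. Leaving out an array of a group outside a contrast does not change its log2 difference, so no reversal was possible there. Foxp2, dropped by the filter on the lowest 30% of genes (29 members left), kept its calls in every other setting except heart c-kit cells against cardiomyocytes fitted alone. The calls of Foxs1, Foxc1, Foxo1, Foxc2 and Foxj2 in marrow c-kit cells against MSC held in every setting run. Counts of members called moved as follows, and the cause was not tested. Counts over all genes moved as well. Brackets give the all-gene count of the main fit, of 17710 genes. The lowest and highest counts over the alternatives follow, with single-array omissions left out and at most 17710 genes tested. Heart against marrow c-kit cells went from 3 to 5 with the low filter or low values raised and to 1 when only those groups were fitted or without the 3 narrow arrays (1917, 1079 to 2332). Heart Sca1 cells against MSC went from 4 to 7 with array weights and 8 fitted alone (1827, 1336 to 4267). Heart c-kit against heart Sca1 cells went from 3 to 5 with the filter, 7 with low values raised and 1 fitted alone (1980, 786 to 2628). Marrow c-kit cells against MSC went from 6 to 11 with weights and 10 fitted alone (1954, 1437 to 4367). Cardiac against marrow groups went from 3 to 5 with medians aligned only (3634, 2983 to 4219). Cardiac progenitors against cardiomyocytes went from 0 to 1 with the filter and 3 with low values raised (120, 0 to 499). Heart Sca1 cells against cardiomyocytes went from 0 to 3 with low values raised (0, 0 to 368). Heart c-kit cells against cardiomyocytes went from 2 to 1 with medians aligned, deposited values, the replicate block, weights or without the narrow arrays, to 5 with low values raised, 4 with trend and robust moderation and 0 fitted alone (637, 3 to 1127). Side population cells against cardiomyocytes went from 1 to 7 with medians aligned, 2 with the filter, 5 with low values raised, and 0 with trend and robust moderation, the block, weights, fitted alone or without the narrow arrays (921, 0 to 2619). The interaction went from 5 to 1 with the deposited values and 3 without the narrow arrays (1322, 832 to 1936). The F-test went from 10 to 6 without the narrow arrays (5649, 4655 to 6641). Leaving out 1 array gave the following ranges of members, with those over all genes in brackets. They were 6 to 13 in the F-test (4444 to 6345), 2 to 4 for heart against marrow c-kit cells (1266 to 2309) and 2 to 5 for heart Sca1 cells against MSC (1148 to 2154). They were 2 to 6 for heart c-kit against heart Sca1 cells (1197 to 2552) and 5 to 7 for marrow c-kit cells against MSC (1214 to 2376). Cardiac against marrow groups gave 2 to 7 (2824 to 4058) and the interaction 2 to 5 (863 to 1652). Against cardiomyocytes, cardiac progenitors gave 0 to 1 (1 to 240) and heart c-kit cells 1 to 4 (180 to 941). Heart Sca1 cells gave 0 to 2 (0 to 164) and side population cells 0 to 2 (260 to 1339).

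Aligning medians only moved the median of all genes by scaling, to 0.77 for heart against marrow c-kit cells, 0.73 for heart c-kit against heart Sca1 cells, 0.62 for cardiac against marrow groups, 0.83 for heart c-kit cells and 1.34 for side population cells against cardiomyocytes. The genes called higher were then 829 of 1328 for heart against marrow c-kit cells (866 of 1917 in the main scaling), 2129 of 3127 for cardiac against marrow groups (1616 of 3634) and 2388 of 2619 for side population cells against cardiomyocytes (338 of 921). Deviations from group means cancel out within a group, so they could not decide if replicate numbers paired the arrays. Those of same-numbered arrays correlated from -0.18 to 0.40 with a median of 0.01, and 4 of 36 pairs exceeded 0.1. For differently numbered arrays the range was -0.40 to 0.32 with a median of -0.0008, and 10 of 70 pairs exceeded 0.1. Of 16 arrays, 8 correlated best with their own number. The arrays of narrowest spread, which share a replicate number, correlated at 0.20, 0.32 and 0.40. The replicate block gave 4 members for heart against marrow c-kit cells, and otherwise changed counts only against cardiomyocytes, as above. Dim spots limit what can be read, since 7 members stayed under an intensity of 100 on all arrays.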

Other observations

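Several forkhead genes stood high on the 3 arrays of narrowest spread, heart c-kit replicate 1, cardiomyocyte replicate 1 and marrow c-kit replicate 1 (SD of the deposited values 2.90, 2.95 and 3.29). Foxa3, Foxn4 and Foxo6 were higher on each of them than on all 13 other arrays. For Foxo6 the levels were 6.80 to 7.83 there against 4.62 to 5.36 elsewhere. This pattern held for 3 of 40 members (7.5%) and for 4.48% of all genes. Deviations from the group mean correlated between these arrays at 0.20, 0.32 and 0.40.

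Foxl2 reached a spot intensity of 46201 on heart Sca1 replicate 2, where replicates 1 and 3 had 2837 and 2274. Foxd2 stood at 3.35 on heart c-kit replicate 3, against -2.44 and -1.12 on replicates 1 and 2, and Foxa1 was at -0.71 on side population replicate 1, its highest level on any array, with an intensity of 11. These genes were chosen after their values were seen, and the cause was not tested.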
